A study of Homo sapiens with 4 samples.

Results

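The response of 2 osteosarcoma cell lines to 1 short hairpin RNA was compared, gene by gene, to find the genes that moved in MG-63 and not in Saos-2, in Saos-2 and not in MG-63, or in opposite directions in the lines. The groups were MG-63 cells transfected with sh-circ_0000073, a hairpin directed against the circular RNA hsa_circ_0000073, MG-63 cells transfected with the negative control hairpin sh-NC, and Saos-2 cells given sh-circ_0000073 or, as their control, sh-NC. The sample titles write si-NC and si-hsa_circ_0000073, which are taken here to be the reagents that the study calls sh-NC and sh-circ_0000073. Both lines are established human osteosarcoma lines, and the hairpins were delivered with Lipofectamine. Total RNA of each culture was hybridised to 1 Affymetrix GeneChip array, so 4 arrays were available with 1 array per condition. For each probe set (the probes that together measure 1 transcript cluster) the change was taken as the sh-circ_0000073 log2 signal less the sh-NC one, and the difference was the change in MG-63 minus the change in Saos-2. A probe set was taken when it carried exactly 1 gene symbol and had a log2 signal of at least 6 on at least 1 array of each line, which left 10988 of the 135750 probe sets, for 10508 genes.

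A circular RNA is a closed loop made by back-splicing of an exon, and it can bind microRNAs or proteins. A hairpin can lower a circular RNA without its linear counterpart when it matches the joint of the loop, and any transfected double-stranded RNA can also reach unintended transcripts or the antiviral sensors of the cell. The 2 lines arise from different tumours and differ in lineage genes and tumour suppressor genes, so the same hairpin can meet a different state in each of them.

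The strands of a hairpin against the circle and of the control are shown because the reagents are what every comparison rests on. They come from the list of hairpins of the study, which has more than 1 against the circle and took the first for its further experiments, but the sample labels do not say which of them was used for the arrays. Capitals mark the 20 bases that equal the reverse complement of the reverse primer the study used to amplify the circle, and of the lower case end the a is the last base of the strand before the overhang, tt, while the control strand is given in lower case because none of it was matched.
sh-hsa_circ_0000073-1: GCUGCAAAGGGGCAUAAGGAatt
sh-NC: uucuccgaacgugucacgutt
No probe set was matched to hsa_circ_0000073, so its level in the 4 cultures was not measured here, and an unequal knockdown in the lines and an unequal response to it cannot be told apart. The study reports its knockdown in osteosarcoma cells by quantitative PCR, but does not say that the cultures of the arrays were the ones measured.

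The arrays were alike in their overall distribution, with medians of the member probe sets between 9.45 and 9.63. RB1, which Saos-2 is known to have lost in part, and IBSP, which encodes bone sialoprotein, separated the lines, IBSP lying at 3.54 with sh-circ_0000073 and 3.62 with sh-NC in MG-63 and at 12.73 with sh-circ_0000073 and 13.23 with sh-NC in Saos-2. Of 26 genes of an osteoblast and mineralization list on the array, 9 reached a signal of 6 in MG-63, RUNX2, SPARC, POSTN and TNFRSF11B among them, and 16 did in Saos-2. ALPL and IBSP were below 6 in MG-63. Of the immune cell markers on the array 2 of 15 reached a signal of 6 on any array, which were CD68 and CD14, both in MG-63. Of the endothelial markers 1 of 10 did, and of the epithelial markers 6 of 15, with KRT7 and EPCAM the highest. With 1 array per condition a model with line, hairpin and their interaction leaves no spread to test against, so no p-value is given and every comparison below is by size alone, with 1.5-fold as the size at which a gene is called higher or lower.

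Most genes that passed 1.5-fold did so in 1 line. In MG-63 only, 985 genes (9.37%) were higher and 756 (7.19%) were lower with sh-circ_0000073, where "only" means that the change in the other line did not pass 1.5-fold in either direction. In Saos-2 only, 1130 genes (10.8%) were higher and 467 (4.44%) were lower. Another 63 genes (0.6%) were higher in MG-63 and lower in Saos-2, and 98 genes (0.933%) were lower in MG-63 and higher in Saos-2. The remaining genes were 444 that were higher in both lines, 305 that were lower in both and 6260 that passed 1.5-fold in neither. A gene just past the size in 1 line and just short of it in the other is also counted in 1 line only, and when the other line had to stay under 1.2-fold these 4 counts were 502 (4.78%) and 362 (3.44%) for MG-63 and 578 (5.5%) and 230 (2.19%) for Saos-2. Without regard to the other line, the MG-63 change was past 1.5-fold upward for 1492 genes (14.2%) and downward for 1159 (11%), and the Saos-2 change upward for 1672 (15.9%) and downward for 835 (7.95%). By the difference itself, 1363 genes (13%) were at least 1.5-fold higher in MG-63 relative to Saos-2 and 2016 (19.2%) were lower, and 91 genes passed 4-fold.

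**Figure D1:**
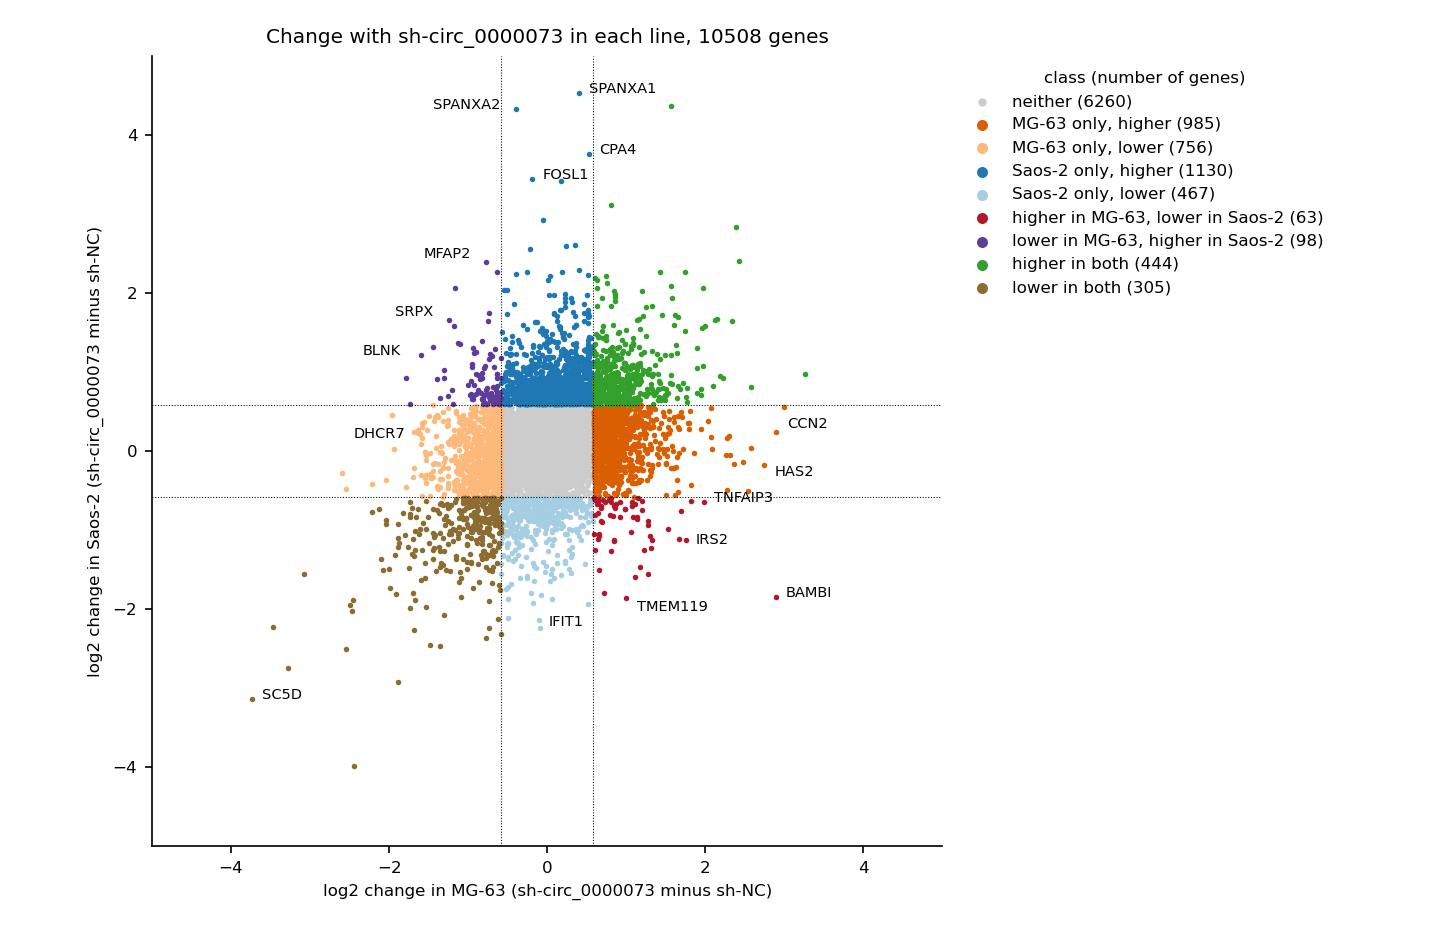
Each point is 1 of 10508 genes, with its log2 change with sh-circ_0000073 relative to sh-NC in MG-63 on the horizontal axis and in Saos-2 on the vertical axis, coloured by class, with dotted lines at 1.5-fold. Most coloured points lie along the arms of the cross, where 1 line moved, and the corners with opposite signs hold 63 and 98 genes, BAMBI being farthest out in the lower right.

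The median change was 0.05 in MG-63 and 0.13 in Saos-2, so the median difference was -0.08, and counts of higher against lower genes in Saos-2 depend on that shift. Counted as probe sets, the classes held 1037 higher (9.44%) and 790 lower (7.19%) in MG-63 only, 1177 higher (10.7%) and 487 lower (4.43%) in Saos-2 only, and 65 (0.592%) and 102 (0.928%) with opposite changes. When each line was centred on its own median, those of Saos-2 only became 782 higher and 732 lower. The direction of a large difference did not hinge on this shift, but the class of a gene near 1.5-fold did. At the signal minimum, the gene just inside was ARPC5L, which reached the minimum itself with sh-circ_0000073 in MG-63 and had 5.55 with sh-NC. The gene just outside was CDCP2, with 5.99 with sh-circ_0000073 and 5.49 with sh-NC in MG-63.

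The signal level and the choice of probe set moved with the classes. Opposite changes made up 2.10% of probe sets with a mean signal under 7 and 2.41% of those between 7 and 9, against 0.497% of those at 15 or more. Changes in 1 line only made up 33%, 34.7% and 15.7% in the same order, so both kinds were commoner among dim probe sets. Of the 308 genes with several member probe sets, 90 were in a class of 1 line only or opposite by their brightest probe set, and their next probe set gave the same class in 22 and a difference of the same sign in 53. Among the 18 with a difference past 2-fold, 11 had the same sign in the next probe set. SAMD5 was lower in Saos-2 only by both of its probe sets, with differences of 1.60 and 0.67, while TRAK2 had -1.60 by its brightest probe set and 0.58 by the next. The part of signal level and probe set choice in the results below was not tested.

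BAMBI, a decoy receptor that dampens TGF-β and BMP signals, had the largest positive difference of all genes ranked. Its log2 signals were 14.91 with sh-circ_0000073 and 12.02 with sh-NC in MG-63, and 9.75 with sh-circ_0000073 and 11.60 with sh-NC in Saos-2. The fold was 7.41 upward in MG-63 and 3.61 downward in Saos-2, which set the lines apart by 4.74 on the log2 scale. The array with sh-circ_0000073 in MG-63 was the highest of the 4. FST, which encodes follistatin, a trap for activins and BMPs, changed the same way (1.07 in MG-63 against -0.64 in Saos-2), as did TGFBR3, the co-receptor betaglycan (0.84 in MG-63 against -1.13 in Saos-2).

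Growth factor signalling genes stood among the other genes that were higher in MG-63 and lower in Saos-2. BDNF, a neurotrophin, had signals of 11.20 with sh-circ_0000073 and 9.92 with sh-NC in MG-63, and 9.06 with sh-circ_0000073 and 10.62 with sh-NC in Saos-2. IRS2, the adaptor that couples insulin and IGF receptors to PI3K, had 11.40 with sh-circ_0000073 and 9.65 with sh-NC in MG-63, and 5.25 with sh-circ_0000073 and 6.37 with sh-NC in Saos-2. In both genes the MG-63 culture with sh-circ_0000073 was the highest of the 4 arrays and the Saos-2 culture with the same hairpin the lowest. TNFAIP3, which encodes the NF-κB brake A20, changed by 1.98 in MG-63 against -0.65 in Saos-2. EGFR, the epidermal growth factor receptor gene, changed by 0.59 in MG-63 against -1.05 in Saos-2, where both of its signals in Saos-2 were near the minimum at 6.26 with sh-circ_0000073 and 7.31 with sh-NC. Its MG-63 change barely passed 1.5-fold, and EGFR leaves this class when each line is centred on its own median.

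The remaining ranked genes with a higher change in MG-63 had varied roles. C1QL1, a secreted C1q-like protein, stood among the largest differences of all genes without being opposite, at 2.27 in MG-63 against -0.49 in Saos-2. CHEK2, a DNA damage checkpoint kinase, changed by 1.31 in MG-63 against -1.23 in Saos-2. PDE5A, which degrades cyclic GMP, changed by 1.30 in MG-63 against -1.07 in Saos-2, and TENT5A, a noncanonical poly(A) polymerase, by 1.28 in MG-63 against -0.93 in Saos-2. The membrane protein genes TMEM119, known from osteoblasts and microglia, and TMEM47 changed by 1.00 in MG-63 against -1.86 in Saos-2, and by 1.17 in MG-63 against -1.47 in Saos-2. CDH8, a cadherin, had signals between 5.65 and 7.64 on the 4 arrays, so its changes (1.11 in MG-63 against -1.59 in Saos-2) rest on dim values. Over all 63 genes the MG-63 change ran from 0.59 to 2.89 with a median of 0.87, and the Saos-2 change from -1.86 to -0.59 with a median of -0.82. Of these genes 39 were at 6 or more on every array.

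The opposite pattern, lower in MG-63 and higher in Saos-2, was found in genes of varied roles. MFAP2, a microfibril protein of elastic matrix, had signals of 11.69 with sh-circ_0000073 and 12.46 with sh-NC in MG-63, and 6.04 with sh-circ_0000073 and 3.65 with sh-NC in Saos-2, so that its Saos-2 change started from a value close to background. SRPX, which encodes a sushi repeat protein, had 10.34 with sh-circ_0000073 and 11.58 with sh-NC in MG-63, and 11.16 with sh-circ_0000073 and 9.50 with sh-NC in Saos-2. Unlike MFAP2, SRPX was above 9 on all 4 arrays, and the order of the lines turned, since with sh-circ_0000073 Saos-2 was the higher and with sh-NC MG-63 was. PDE1C, a phosphodiesterase driven by calcium and calmodulin, showed the same turn, with 10.14 with sh-circ_0000073 and 11.58 with sh-NC in MG-63, and 10.42 with sh-circ_0000073 and 9.11 with sh-NC in Saos-2.

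LTBP3, which holds latent TGF-β in the matrix, changed by -1.13 in MG-63 against 1.37 in Saos-2, and its Saos-2 signals were 6.06 with sh-circ_0000073 and 4.69 with sh-NC. SOCS2, an inhibitor of cytokine receptor signalling, changed by -1.31 in MG-63 against 1.03 in Saos-2, and TP53BP1, a scaffold of DNA double-strand break repair, by -0.95 in MG-63 against 1.10 in Saos-2. CYRIA, a regulator of RAC1-driven actin assembly, changed by -0.63 in MG-63 against 2.27 in Saos-2. BLNK, an adaptor known from B cell receptor signalling, changed by -1.60 in MG-63 against 1.22 in Saos-2 on signals between 5.75 and 7.35. The channel-like gene TMC7, the peptidase gene PGPEP1 and ZNF248 also stood in the ranks, with MG-63 changes of -1.18, -1.10 and -0.94 and Saos-2 changes of 1.58, 1.36 and 1.30. Of the 59 genes named by rank in either direction, opposite or in 1 line, 17 had an array below 6, in MG-63 for 4 of them and in Saos-2 for 15, with 2 counted under both lines. Besides MFAP2, LTBP3, BLNK, CDH8, IRS2 and SOCS2, these include TMC7 (6.42 with sh-circ_0000073 and 4.84 with sh-NC in Saos-2) and CHEK2 (5.09 with sh-circ_0000073 and 6.32 with sh-NC in Saos-2), so such changes start or end close to background. Across all 98 genes the median change was -0.77 in MG-63, against 0.74 in Saos-2, and 73 were at 6 or more on every array. In 61 of the 98 the mean signal was higher in MG-63, as it was in 31 of the 63 genes of the other direction and in 51.8% of all genes. Because the class fixes the direction of both changes, the lines come closer with sh-circ_0000073 where the line that fell was the brighter one. The lines were closer in 61 of the 98 and 32 of the 63, which therefore only restates which line was brighter. The median gap between lines was 1.32 with sh-circ_0000073 and 1.88 with sh-NC for the 98 genes. For the 63 genes it was 1.57 with sh-circ_0000073 and 1.65 with sh-NC.

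**Figure D2:**
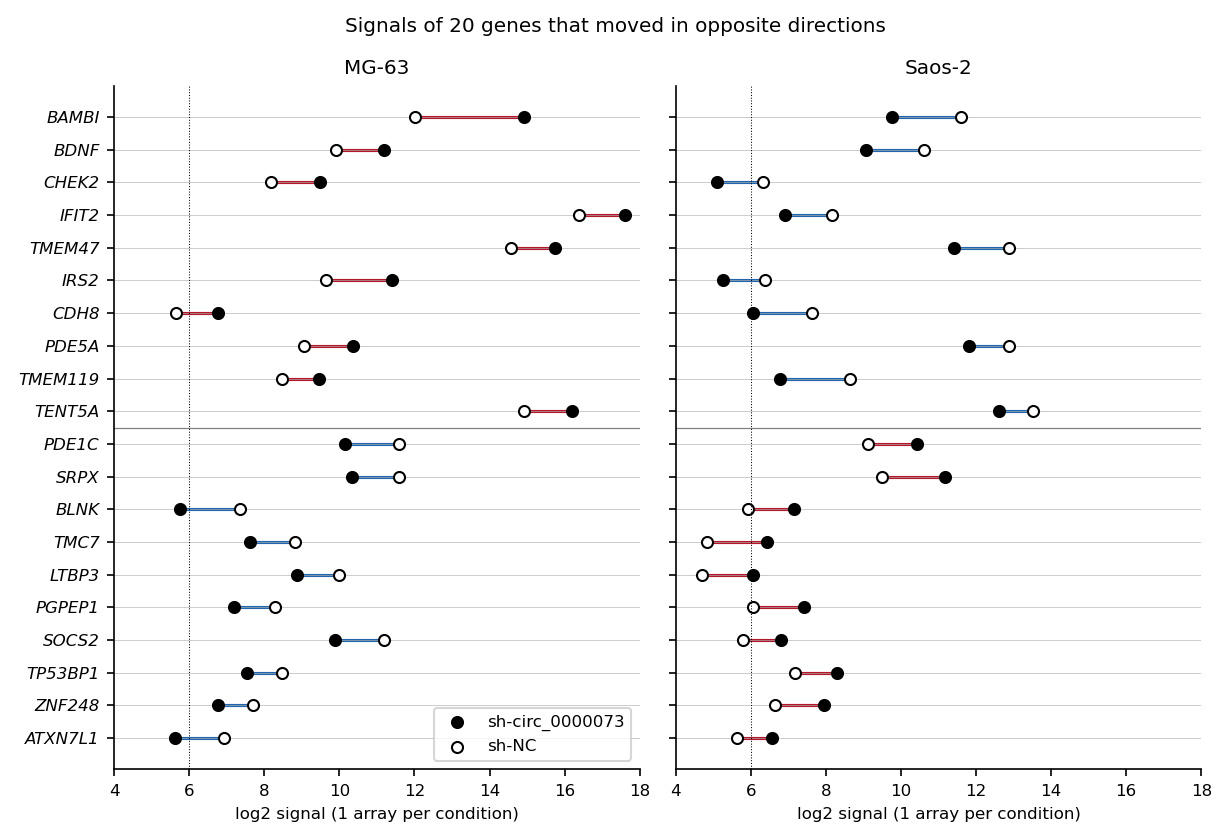
Log2 signals of the 20 genes ranked by the smaller of their 2 opposite changes, with sh-circ_0000073 as filled and sh-NC as open circles, MG-63 on the left and Saos-2 on the right, 1 array per circle, red joins where sh-circ_0000073 was higher, blue where it was lower, and a dotted line at the signal minimum of 6. The upper 10 genes, from BAMBI to TENT5A, are red in MG-63 and blue in Saos-2, and the lower 10, from PDE1C to ATXN7L1, are the reverse.

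For each line and direction the 8 genes with the largest change were taken from those under 1.2-fold in the other line. The largest increases in MG-63 were in genes of varied roles. CCN2, a matricellular protein and a common target of YAP and TGF-β, had signals of 14.77 with sh-circ_0000073 and 11.87 with sh-NC in MG-63, and 7.65 with sh-circ_0000073 and 7.41 with sh-NC in Saos-2. HAS2, the main synthase of hyaluronan, had 12.77 with sh-circ_0000073 and 10.03 with sh-NC in MG-63, and 6.51 with sh-circ_0000073 and 6.69 with sh-NC in Saos-2. The 2 genes moved by 7.46-fold and 6.68-fold in MG-63 and stayed within 0.24 of no change in Saos-2, where both were far dimmer. PTGS2, the inducible cyclooxygenase gene, had 17.64 with sh-circ_0000073 and 15.34 with sh-NC in MG-63, and 6.19 with sh-circ_0000073 and 6.0 with sh-NC in Saos-2, so in Saos-2 it sat close to the minimum on both arrays and a decrease there could have gone unseen.

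FZD7, a Wnt receptor gene, stood at 6.49 with sh-NC in both lines, which makes it the plainest case: it was 9.07 with sh-circ_0000073 in MG-63 and 6.53 with sh-circ_0000073 in Saos-2. KITLG, the ligand of the receptor KIT, changed by 2.36 in MG-63 against -0.16 in Saos-2. BCL6, a transcriptional repressor, changed by 2.48 in MG-63 against -0.14 in Saos-2, and SULF1, which trims heparan sulfate in the matrix, by 2.28 in MG-63 against 0.16 in Saos-2. GASK1B was the only gene of these 8 that was brighter in Saos-2 with either hairpin, with 9.85 with sh-circ_0000073 and 7.54 with sh-NC in MG-63, and 14.15 with sh-circ_0000073 and 14.20 with sh-NC in Saos-2.

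The largest decreases in MG-63 only did not pass -1.94. PSMB5, a catalytic subunit of the proteasome, had 7.59 with sh-circ_0000073 and 9.53 with sh-NC in MG-63, and 10.89 with sh-circ_0000073 and 10.87 with sh-NC in Saos-2. The sterol reductase gene DHCR7 and RARS1, the arginyl-tRNA synthetase, followed with -1.61 in MG-63 against 0.22 in Saos-2, and with -1.55 in MG-63 against -0.01 in Saos-2. DNASE2, the lysosomal DNase, changed by -1.64 in MG-63 against 0.26 in Saos-2. HOXB7, a homeobox gene, changed by -1.63 in MG-63 against 0.23 in Saos-2, and CA13, a carbonic anhydrase, by -1.60 in MG-63 against 0.09 in Saos-2. MFSD6, a membrane protein of the transporter superfamily, changed by -1.59 in MG-63 against 0.16 in Saos-2, with a signal of 4.88 with sh-circ_0000073 in MG-63. The interferon-stimulated gene IFIT5, described with its list, was also among these 8. With sh-NC, MG-63 was above Saos-2 by only 0.10 for DHCR7 and 0.46 for HOXB7, so in these the flat line was not a far dimmer one.

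The largest changes in 1 line only were increases in Saos-2. FOSL1, which encodes the AP-1 subunit FRA-1, had 12.08 with sh-circ_0000073 and 12.27 with sh-NC in MG-63, and 8.67 with sh-circ_0000073 and 5.23 with sh-NC in Saos-2. ARHGAP29, an inactivator of RhoA, had 13.69 with sh-circ_0000073 and 13.52 with sh-NC in MG-63, and 7.78 with sh-circ_0000073 and 4.36 with sh-NC in Saos-2. In both genes the Saos-2 array with sh-NC was below 6 and MG-63 was brighter with either hairpin, so Saos-2 moved toward the MG-63 level. ACKR3, a scavenging receptor for the chemokine CXCL12, also moved toward the MG-63 level, at 14.50 with sh-circ_0000073 and 14.55 with sh-NC in MG-63, and 9.38 with sh-circ_0000073 and 6.46 with sh-NC in Saos-2. TGFBI, a matrix protein named for its induction by TGF-β, changed by -0.22 in MG-63 against 2.55 in Saos-2. EHD2, which holds caveolae at the membrane, changed by 0.04 in MG-63 against 2.22 in Saos-2.

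SPANXA1 and SPANXA2, cancer-testis genes of the X chromosome, had the largest increases of the ranked genes that were higher in Saos-2 only, at 4.53 and 4.33. They are near-identical copies, however, and their probe sets may share signal. CPA4, a secreted carboxypeptidase, changed by 0.53 in MG-63 against 3.76 in Saos-2, its MG-63 change being just short of 1.5-fold. KCNJ2, an inward rectifier potassium channel, changed by 0.24 in MG-63 against 2.60 in Saos-2. FABP3, a fatty acid binding protein, changed by 0.19 in MG-63 against 2.27 in Saos-2, and AOX1, an aldehyde oxidase, by -0.25 in MG-63 against 2.26 in Saos-2, from a Saos-2 signal of 4.69 with sh-NC. In the downward direction MAP2K6, a kinase that activates p38, had 8.66 with sh-circ_0000073 and 8.75 with sh-NC in MG-63, and 5.31 with sh-circ_0000073 and 7.55 with sh-NC in Saos-2. RDH10, which makes retinaldehyde, changed by -0.18 in MG-63 against -1.92 in Saos-2. TRA2A, a splicing factor, changed by 0.06 in MG-63 against -1.87 in Saos-2. SEMA5A, a guidance molecule, changed by -0.08 in MG-63 against -1.82 in Saos-2. SLC12A7, a potassium chloride cotransporter, changed by 0.04 in MG-63 against -1.64 in Saos-2. FARP2, a guanine nucleotide exchange factor, changed by -0.17 in MG-63 against -1.65 in Saos-2, while SAMD5 and IFIT1 were also among these 8.

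Gene lists were then described in the same way, by counts and medians beside those of all 10508 genes (0.05 in MG-63, 0.13 in Saos-2, and -0.08 for the difference). Of 32 lists with at least 10 measured genes, 21 had a negative median difference and 11 a positive one. The lowest medians were those of ATF4 and amino acid stress, cholesterol synthesis, and AP-1 and immediate early genes, the last of which turned to 0.09 with a signal minimum of 7, and the highest those of p53 targets, mitosis and BMP signalling. The median differences closest to 0 were those of PI3K and Akt at -0.02, actomyosin contractile genes at 0.03, and DNA replication, heat shock proteins and integrins at 0.04, 0.04 and -0.04. Single genes of these lists still differed in both directions, with 8 of the 44 DNA replication genes past 1.5-fold upward in the difference and 5 downward, and 5 of the 19 PI3K and Akt genes upward and 2 downward. Over all genes 13% passed it upward and 19.2% downward, so such counts say little about these lists.

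**Figure D3:**
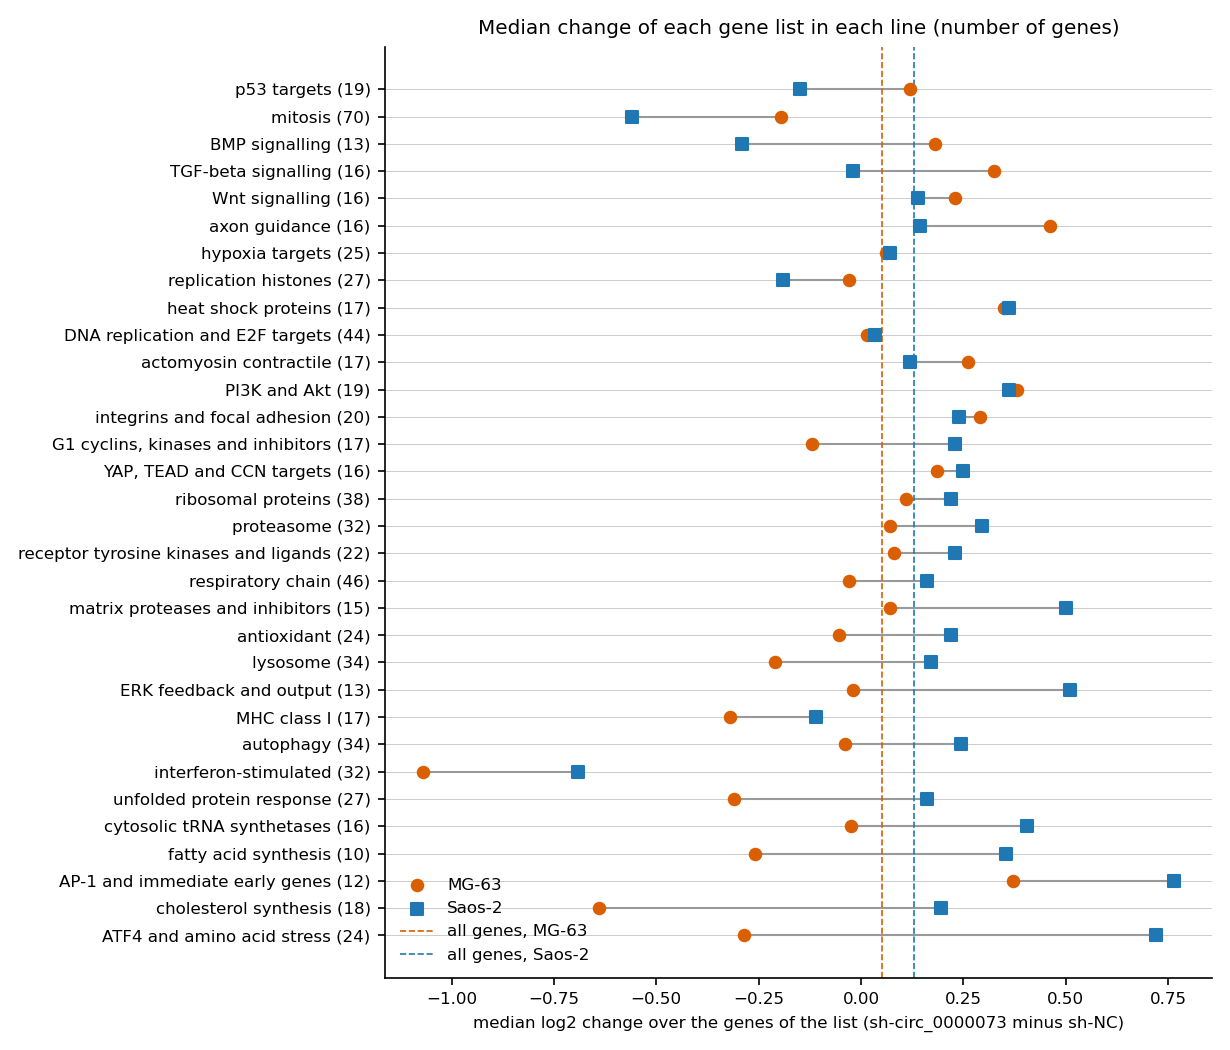
Median log2 change over the genes of each of 32 lists in MG-63 (circles) and Saos-2 (squares), ordered by the median difference, with dashed lines at the medians of all genes. The symbols lie farthest apart for the ATF4 and amino acid stress list, at -0.29 in MG-63, against 0.72 in Saos-2, and for cholesterol synthesis, at -0.64 in MG-63 and 0.20 in Saos-2, whereas both interferon-stimulated medians lie on the left.

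More of the cholesterol synthesis genes were lower in MG-63 than in Saos-2. The pathway converts acetyl-CoA through mevalonate and squalene to cholesterol, and its genes are jointly driven by SREBP-2 when sterols run short. Of 25 genes listed 18 were measured here, and 9 of them were lower in MG-63 only (7.19% of all genes were), 1 was lower in both lines, 1 was higher in Saos-2 only and 7 passed 1.5-fold in neither. With Saos-2 under 1.2-fold, 4 stayed lower in MG-63 only (3.44% of all genes did). The median change was -0.64 in MG-63, against 0.20 in Saos-2, and the difference was negative for 16 of 18 genes, as it was for 55.3% of all genes.

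Along the pathway, IDI1, which isomerises isopentenyl diphosphate, had 11.40 with sh-circ_0000073 and 12.84 with sh-NC in MG-63, and 12.38 with sh-circ_0000073 and 12.55 with sh-NC in Saos-2. SQLE, the squalene epoxidase and a control point of the pathway, had 12.34 with sh-circ_0000073 and 13.66 with sh-NC in MG-63, and 15.34 with sh-circ_0000073 and 14.96 with sh-NC in Saos-2. DHCR7, the reductase of the last step, had 9.28 with sh-circ_0000073 and 10.89 with sh-NC in MG-63, and 11.01 with sh-circ_0000073 and 10.79 with sh-NC in Saos-2. For each of the 3 the MG-63 array with sh-circ_0000073 was the lowest of the 4, and the Saos-2 arrays differed by at most 0.38. STARD4, a sterol carrier, changed by -1.59 in MG-63 against 0.31 in Saos-2. FDPS, the farnesyl diphosphate synthase, changed by -0.63 in MG-63 against 0.57 in Saos-2. MSMO1, a C4 demethylating oxidase, changed by -0.87 in MG-63 against 0.17 in Saos-2. CYP51A1, the lanosterol demethylase, changed by -0.65 in MG-63 against 0.22 in Saos-2. MVK and HSD17B7 were also lower in MG-63 only, but their Saos-2 changes of -0.39 and -0.46 had the same sign.

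Not every gene of the list followed. SC5D, the lathosterol oxidase, was lower in both lines, at -3.74 in MG-63 against -3.14 in Saos-2. INSIG1, which holds the SREBP complex in the endoplasmic reticulum, was higher in Saos-2 only (0.21 in MG-63 against 1.06 in Saos-2), and SREBF2, the gene of SREBP-2 itself, changed by -0.19 in MG-63 against 0.08 in Saos-2. HMGCS1 (-0.33 in MG-63 against 0.43 in Saos-2), NSDHL (-0.32 in MG-63 against 0.39 in Saos-2), ACAT2 (-0.08 in MG-63 against 0.56 in Saos-2), EBP (-0.49 in MG-63 against 0.04 in Saos-2), PMVK (0.05 in MG-63 against -0.16 in Saos-2) and LSS (0.18 in MG-63 against 0.12 in Saos-2), all enzymes of the pathway, likewise passed 1.5-fold in neither line. The fatty acid genes that SREBP-1 drives behaved alike in sign, since all 10 measured had a negative difference. ACLY, which makes cytosolic acetyl-CoA, changed by -0.66 in MG-63 against 0.44 in Saos-2. SREBF1 changed by 0.07 in MG-63 against 0.97 in Saos-2, while FADS2, a desaturase, was lower in both lines at -3.08 in MG-63 against -1.56 in Saos-2.

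**Figure D4:**
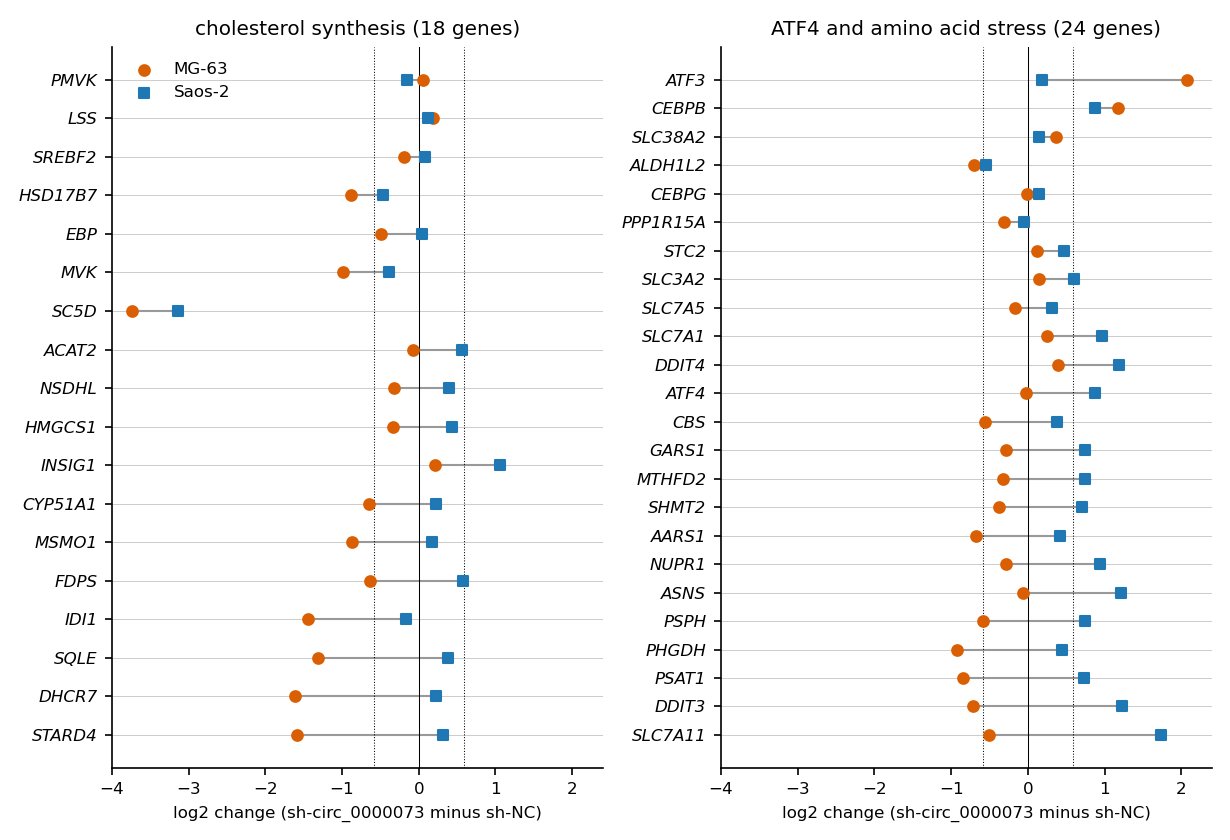
Log2 change with sh-circ_0000073 relative to sh-NC of each measured gene of 2 lists in MG-63 (circles) and Saos-2 (squares), ordered by the difference, with dotted lines at 1.5-fold. In the left panel the circles of 10 of 18 cholesterol synthesis genes pass 1.5-fold downward, and in the right panel the squares of 14 of 24 ATF4 and amino acid stress genes pass it upward, ATF3 being the farthest exception.

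Most genes of the ATF4 and amino acid stress list were higher in Saos-2, and few of them were in MG-63. ATF4 is the transcription factor of the integrated stress response, and it drives amino acid transporters, serine and asparagine synthesis and tRNA charging enzymes. Of 30 genes listed 24 were measured, and 11 were higher in Saos-2 only (10.8% of all genes were), 2 were lower in MG-63 and higher in Saos-2 (0.933% of all genes were), 3 were lower in MG-63 only, 1 was higher in MG-63 only, 1 was higher in both and 6 passed in neither. With MG-63 under 1.2-fold, 4 stayed higher in Saos-2 only (5.5% of all genes did). The median change was -0.29 in MG-63, against 0.72 in Saos-2, and 21 of 24 genes had a negative difference. With sh-NC all 24 genes were brighter in MG-63 than in Saos-2, and with sh-circ_0000073 22 were.

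SLC7A11, the cystine importer, had 13.32 with sh-circ_0000073 and 13.83 with sh-NC in MG-63, and 13.58 with sh-circ_0000073 and 11.85 with sh-NC in Saos-2, so that MG-63 minus Saos-2 was -0.26 with sh-circ_0000073 and 1.98 with sh-NC. DDIT3, which encodes the stress factor CHOP, had 12.10 with sh-circ_0000073 and 12.82 with sh-NC in MG-63, and 7.36 with sh-circ_0000073 and 6.13 with sh-NC in Saos-2. PSAT1, the aminotransferase of serine synthesis, had 14.75 with sh-circ_0000073 and 15.59 with sh-NC in MG-63, and 15.05 with sh-circ_0000073 and 14.32 with sh-NC in Saos-2. Of the neighbouring enzymes of that route, PHGDH changed by -0.92 in MG-63 against 0.44 in Saos-2. PSPH changed by -0.58 in MG-63 against 0.75 in Saos-2. ATF4 itself changed by -0.03 in MG-63 against 0.88 in Saos-2. ASNS, the asparagine synthetase, changed by -0.07 in MG-63 against 1.21 in Saos-2.

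Genes outside the serine route that were higher in Saos-2 only were the arginine importer SLC7A1 (0.25 in MG-63 against 0.96 in Saos-2), the mitochondrial folate enzymes SHMT2 (-0.37 in MG-63 against 0.71 in Saos-2) and MTHFD2 (-0.32 in MG-63 against 0.74 in Saos-2), the mTOR inhibitor DDIT4 (0.39 in MG-63 against 1.19 in Saos-2) and the stress protein NUPR1 (-0.29 in MG-63 against 0.94 in Saos-2). ATF3, a stress-induced repressor that also answers to other pathways, ran the other way, at 12.43 with sh-circ_0000073 and 10.36 with sh-NC in MG-63, and 8.68 with sh-circ_0000073 and 8.50 with sh-NC in Saos-2. The cytosolic tRNA synthetases, a list chosen after their values were seen, had a median difference of -0.56 over 16 genes, 13 of them negative. SARS1, the seryl enzyme, changed by 0.02 in MG-63 against 1.16 in Saos-2. WARS1, the tryptophanyl enzyme, changed by -1.24 in MG-63 against 0.09 in Saos-2, and CARS1, the cysteinyl enzyme, by -1.01 in MG-63 against 0.39 in Saos-2, whereas FARSA, a phenylalanyl subunit, had 0.76 in MG-63 against 0.26 in Saos-2.

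The promoters of ASNS and ATF3 are shown because the 2 genes of this list parted in opposite ways while both hold the letters TGATGNAA, an amino acid response element, a motif chosen after the values were seen. The sequences run 5′ to 3′ with the gene, from 250 bases before its start to 50 after, from RefSeq on build GRCh38.p14, with the motif in capitals.
ASNS, chr7:97872359-97872658, minus strand: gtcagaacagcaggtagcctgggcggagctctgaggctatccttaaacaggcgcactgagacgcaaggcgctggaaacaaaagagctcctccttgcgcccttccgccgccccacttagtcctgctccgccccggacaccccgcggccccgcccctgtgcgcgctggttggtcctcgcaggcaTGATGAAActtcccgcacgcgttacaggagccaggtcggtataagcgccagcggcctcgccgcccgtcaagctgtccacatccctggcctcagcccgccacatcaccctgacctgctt
ATF3, chr1:212565157-212565456, plus strand: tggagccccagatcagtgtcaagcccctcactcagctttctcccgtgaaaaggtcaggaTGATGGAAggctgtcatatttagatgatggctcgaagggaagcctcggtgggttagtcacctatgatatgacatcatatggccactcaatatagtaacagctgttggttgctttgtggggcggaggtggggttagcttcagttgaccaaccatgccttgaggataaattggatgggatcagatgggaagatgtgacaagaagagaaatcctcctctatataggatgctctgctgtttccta
Searched on both strands, TGATGNAA was found in 5 of 19 promoters of the list (26.3%), in 5 of 14 of the tRNA synthetases (35.7%) and in 1.78% of the 6920 member genes that had a promoter in the table. Of the 5 genes of the list, 3 were higher in Saos-2 only, namely ASNS, SLC3A2 and SLC7A1, AARS1 was lower in MG-63 only and ATF3 was higher in MG-63 only. Over the 24 measured genes of the list the same counts were 11, 3 and 1. The sterol element TCACNCCAC was found in 1 of 16 promoters of cholesterol synthesis genes (6.25%, against 1.05% of all), that of SREBF2, whose change passed 1.5-fold in neither line.

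The unfolded protein response, which expands the folding capacity of the endoplasmic reticulum, had few genes past 1.5-fold. Of 27 measured genes 3 (11.1%) were lower in MG-63 only, against 7.19% of all genes, and 3 (11.1%) were higher in Saos-2 only, against 10.8% of all, so the second share is at the background. Another 2 were lower in both and 19 passed in neither. The difference was negative for 22 (81.5%), against 55.3% of all genes, with medians of -0.31 in MG-63 and 0.16 in Saos-2. MANF, a secreted protein of this response, changed by -0.38 in MG-63 against 1.00 in Saos-2. HERPUD1, a part of the degradation machinery, changed by -0.02 in MG-63 against 0.84 in Saos-2. The co-chaperone gene DNAJB11 changed by -0.81 in MG-63 against 0.26 in Saos-2. A second probe set of DNAJB11 gave a difference of -1.03 beside -1.07, although it passed 1.5-fold in neither line. EDEM1 and the chaperone gene HSP90B1 were the genes lower in both lines. In the lysosome list 27 of 34 genes (79.4%) had a negative difference, but 21 passed 1.5-fold in neither line, 3 (8.82%) were lower in MG-63 only and 5 (14.7%) higher in Saos-2 only, close to the same shares of all genes. Among the genes lower in MG-63 only were LIPA, the acid lipase (-1.59 in MG-63 against 0.35 in Saos-2), and NEU1, a sialidase (-1.16 in MG-63 against 0.15 in Saos-2).

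Interferon-stimulated genes were lower in both lines as a list, while the sizes of the changes differed between the lines by gene. These genes answer type I interferon or double-stranded RNA and limit viral growth. Of 51 listed 32 were measured, and 10 were lower in both lines (2.90% of all genes were), 9 were lower in MG-63 only (7.19% of all genes were), 6 were lower in Saos-2 only (4.44% of all genes were), 1 was opposite in each direction and 5 passed in neither. With the other line under 1.2-fold, 4 stayed lower in MG-63 only (3.44% of all genes did) and 3 in Saos-2 only (2.19% of all genes did). The median change was -1.07 in MG-63, against -0.69 in Saos-2. All 32 were brighter in MG-63 than in Saos-2 with either hairpin. The median signal of the list was 13.22 with sh-circ_0000073 and 14.46 with sh-NC in MG-63, and 8.53 with sh-circ_0000073 and 9.42 with sh-NC in Saos-2.

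The IFIT genes, whose proteins bind viral RNA, lie side by side within 119 kb of chromosome 10 (chr10:89302046-89420997 on GRCh38.p14) and parted from one another. IFIT1 had 17.70 with sh-circ_0000073 and 17.81 with sh-NC in MG-63, and 7.14 with sh-circ_0000073 and 9.28 with sh-NC in Saos-2. IFIT3 had 17.76 with sh-circ_0000073 and 17.25 with sh-NC in MG-63, and 9.37 with sh-circ_0000073 and 11.30 with sh-NC in Saos-2. IFIT2, the only gene of the list that was higher in MG-63 and lower in Saos-2, had 17.61 with sh-circ_0000073 and 16.38 with sh-NC in MG-63, and 6.91 with sh-circ_0000073 and 8.16 with sh-NC in Saos-2. All 3 were lower in Saos-2 and not in MG-63, where their signals lay between 16.38 and 17.81, near the top of the scale. IFIT5 was the reverse, with 10.46 with sh-circ_0000073 and 12.14 with sh-NC in MG-63, and 8.46 with sh-circ_0000073 and 8.67 with sh-NC in Saos-2.

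Other genes lower in MG-63 only were PARP14, an ADP-ribosyltransferase (-1.18 in MG-63 against -0.11 in Saos-2), EPSTI1 (-1.53 in MG-63 against -0.30 in Saos-2), IFI44L (-1.55 in MG-63 against -0.34 in Saos-2), the oligoadenylate synthase gene OAS3 (-1.17 in MG-63 against -0.44 in Saos-2) and SAMD9 (-1.03 in MG-63 against -0.20 in Saos-2). Lower in Saos-2 only were IRF9, the DNA-binding part of the interferon-activated complex ISGF3 (-0.41 in MG-63 against -1.37 in Saos-2), IRF1, a transcription factor (0.14 in MG-63 against -0.78 in Saos-2), the membrane protein gene IFITM1 (-0.19 in MG-63 against -0.83 in Saos-2) and the ubiquitin-like modifier gene ISG15 (-0.50 in MG-63 against -0.65 in Saos-2). Several of these genes, such as OAS3 and ISG15, also fell in the other line, short of 1.5-fold. IFI35 was the gene lower in MG-63 and higher in Saos-2, with 9.92 with sh-circ_0000073 and 11.18 with sh-NC in MG-63, and 6.75 with sh-circ_0000073 and 6.05 with sh-NC in Saos-2, its Saos-2 signals lying near the minimum. Its Saos-2 change no longer passes 1.5-fold when each line is centred on its own median.

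The promoters of IFIT1, IFIT3 and IFIT5 are shown because these neighbours hold the same interferon element and moved in different lines. They are given as above, 5′ to 3′ with the gene from RefSeq on GRCh38.p14, with the element in capitals, which is a pair of GAAA separated by any 2 bases, or the reverse complement.
IFIT1, chr10:89392373-89392672, plus strand: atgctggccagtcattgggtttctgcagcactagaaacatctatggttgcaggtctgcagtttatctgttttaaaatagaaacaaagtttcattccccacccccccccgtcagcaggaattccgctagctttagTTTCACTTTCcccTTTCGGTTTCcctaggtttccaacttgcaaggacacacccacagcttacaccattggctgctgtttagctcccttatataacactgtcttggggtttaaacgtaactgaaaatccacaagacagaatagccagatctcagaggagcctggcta
IFIT3, chr10:89327747-89328046, plus strand: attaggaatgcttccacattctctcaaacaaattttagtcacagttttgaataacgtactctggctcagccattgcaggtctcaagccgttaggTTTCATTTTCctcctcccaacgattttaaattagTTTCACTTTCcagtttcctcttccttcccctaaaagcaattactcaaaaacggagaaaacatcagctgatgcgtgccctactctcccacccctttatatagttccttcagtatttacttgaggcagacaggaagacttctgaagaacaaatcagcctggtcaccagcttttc
IFIT5, chr10:89414318-89414617, plus strand: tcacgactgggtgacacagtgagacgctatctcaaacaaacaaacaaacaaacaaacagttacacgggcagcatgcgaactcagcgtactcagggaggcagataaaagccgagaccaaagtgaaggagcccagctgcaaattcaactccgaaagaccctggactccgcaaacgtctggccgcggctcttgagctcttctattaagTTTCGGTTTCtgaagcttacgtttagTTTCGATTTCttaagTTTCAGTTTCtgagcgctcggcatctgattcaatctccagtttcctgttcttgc
On both strands the element was found 2 times in the promoters of IFIT1 and IFIT3 and 3 times in that of IFIT5, copies that overlap being counted apart. It was present in 19 of 28 promoters of the list (67.9%) and in 2.99% of all 6920. Among the 19 genes that hold it, 7 were lower in MG-63 only, 4 in Saos-2 only, 4 in both and 4 in neither, so genes with these letters were found in every one of those classes. Over the 32 measured genes of the list the same counts were 9, 6, 10 and 5.

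**Figure D5:**
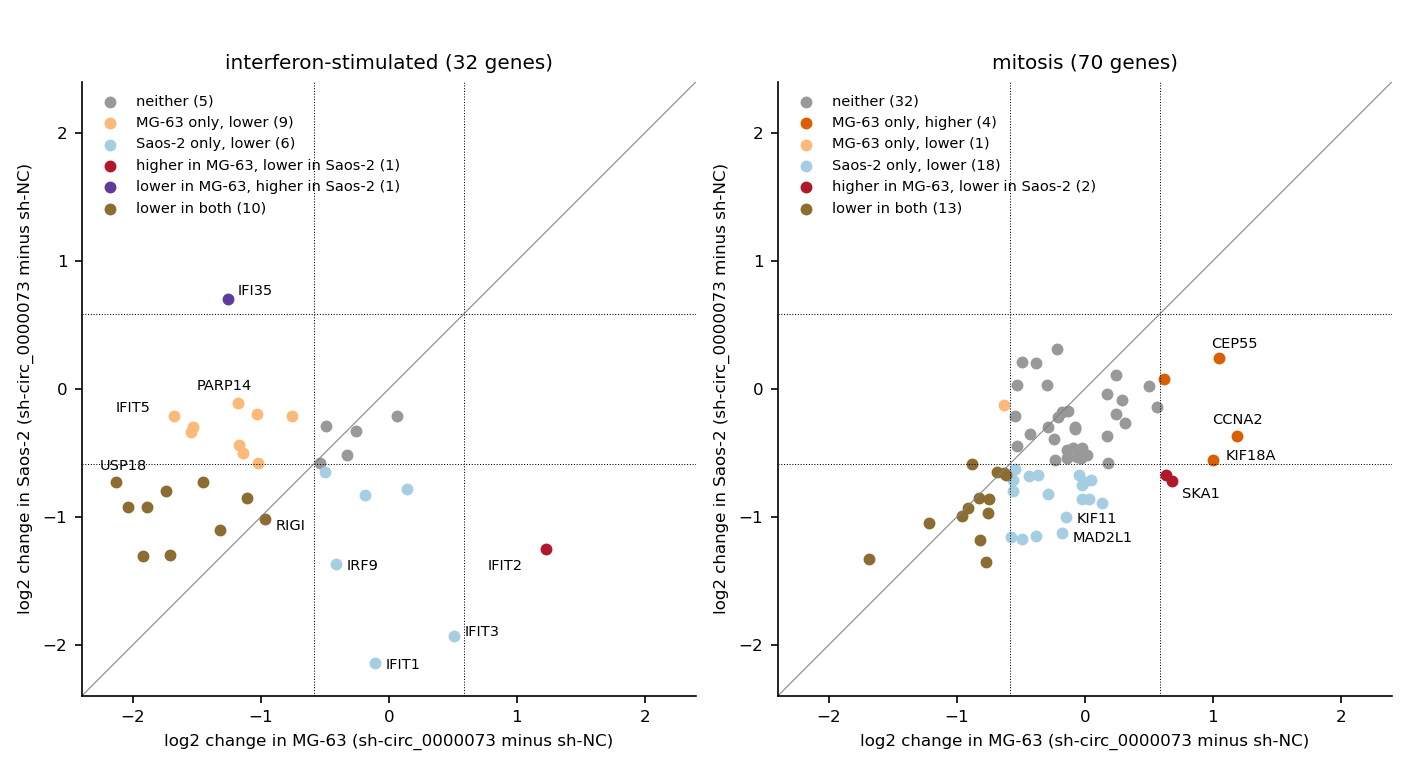
Log2 change in MG-63 (horizontal) and Saos-2 (vertical) with sh-circ_0000073 relative to sh-NC for the 32 interferon-stimulated and the 70 mitosis genes measured, coloured by class, with dotted lines at 1.5-fold and a grey line of equal change. Interferon-stimulated genes spread on both sides of the grey line, from IFIT5 and IFI35 on its left to IFIT1, IFIT2 and IFIT3 on its right, while 56 of 70 mitosis genes lie to its right.

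Genes of mitosis had their lower median in Saos-2, where 33 of 70 were lower and 0 were higher, against 14 lower and 6 higher in MG-63. Of all genes 7.95% were lower and 15.9% higher in Saos-2, and 11% were lower and 14.2% higher in MG-63. The list holds spindle motors, kinetochore proteins and mitotic kinases, whose transcripts peak in G2 and M phase, so their total signal follows the share of dividing cells. In whole cultures, fewer cells in division and less of these transcripts per cell cannot be told apart. All 70 listed genes were measured, and 18 were lower in Saos-2 only (4.44% of all genes were), 13 were lower in both lines (2.90% of all genes were), 1 was lower in MG-63 only, 4 were higher in MG-63 only (9.37% of all genes were), 2 were higher in MG-63 and lower in Saos-2 (0.6% of all genes were), and 32 passed in neither. With MG-63 under 1.2-fold, 9 stayed lower in Saos-2 only (2.19% of all genes did). The median change was -0.20 in MG-63, against -0.56 in Saos-2, and 56 of 70 had a positive difference, against 44.1% of all genes.

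Among those lower in Saos-2 only, MAD2L1, a spindle checkpoint protein, had 8.21 with sh-circ_0000073 and 8.39 with sh-NC in MG-63, and 10.61 with sh-circ_0000073 and 11.74 with sh-NC in Saos-2. KIF11, the motor that separates the spindle poles, had 9.74 with sh-circ_0000073 and 9.89 with sh-NC in MG-63, and 12.58 with sh-circ_0000073 and 13.58 with sh-NC in Saos-2. CENPA, the centromeric histone, changed by 0.13 in MG-63 against -0.89 in Saos-2. CDK1, the mitotic kinase, changed by -0.05 in MG-63 against -0.67 in Saos-2. ECT2, which triggers cytokinesis, changed by 0.03 in MG-63 against -0.86 in Saos-2. TPX2, a spindle assembly factor, changed by 0.05 in MG-63 against -0.71 in Saos-2. In MG-63 the changes of these 6 genes lay between -0.18 and 0.13.

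A smaller set was higher in MG-63. CCNA2, which encodes cyclin A2, changed by 1.19 in MG-63 against -0.37 in Saos-2. CEP55, a scaffold of the last step of cell division, changed by 1.05 in MG-63 against 0.24 in Saos-2. KIF18A, a kinesin that limits chromosome movement, had 12.75 with sh-circ_0000073 and 11.75 with sh-NC in MG-63, and 12.71 with sh-circ_0000073 and 13.27 with sh-NC in Saos-2. SKA1, a kinetochore protein that follows microtubule ends, had 9.05 with sh-circ_0000073 and 8.37 with sh-NC in MG-63, and 9.62 with sh-circ_0000073 and 10.34 with sh-NC in Saos-2, and KIF18B, a relative of KIF18A, changed by 0.63 in MG-63 against -0.67 in Saos-2. SKA1 and KIF18B were the 2 genes of the list that passed 1.5-fold in opposite directions, while KIF18A fell just short of it in Saos-2. KIF18B passed it narrowly in MG-63, and no longer does when each line is centred on its own median. Outside the list RRM2, a subunit of ribonucleotide reductase, had 10.94 with sh-circ_0000073 and 9.12 with sh-NC in MG-63, and 13.77 with sh-circ_0000073 and 14.20 with sh-NC in Saos-2, but the 44 measured genes of DNA replication as a whole had medians of 0.02 in MG-63 and 0.04 in Saos-2.

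The promoters of KIF18A and SKA1 are shown because they hold the cell cycle element typical of this list and yet were higher in MG-63. Capitals mark TTTGAA or its reverse complement, with source, build and orientation as above.
KIF18A, chr11:28108107-28108406, minus strand: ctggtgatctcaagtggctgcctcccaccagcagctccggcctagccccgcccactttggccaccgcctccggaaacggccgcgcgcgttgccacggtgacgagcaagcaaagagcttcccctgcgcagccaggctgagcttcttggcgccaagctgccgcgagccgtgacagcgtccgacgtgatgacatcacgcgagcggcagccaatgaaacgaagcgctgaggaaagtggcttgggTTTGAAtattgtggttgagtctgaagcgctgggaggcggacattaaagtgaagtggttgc
SKA1, chr18:50374796-50375095, plus strand: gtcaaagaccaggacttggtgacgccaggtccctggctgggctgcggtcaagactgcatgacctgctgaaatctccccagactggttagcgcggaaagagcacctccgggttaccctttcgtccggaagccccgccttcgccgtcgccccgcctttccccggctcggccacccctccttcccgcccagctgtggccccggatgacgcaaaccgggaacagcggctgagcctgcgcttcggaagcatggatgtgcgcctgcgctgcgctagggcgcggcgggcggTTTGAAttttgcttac
The element was found in 43 of 62 promoters of mitosis genes (69.4%) and in 10.8% of all 6920. Of the 43 genes, 15 were lower in Saos-2 only, 8 in both lines and 15 passed in neither, while 3 were higher in MG-63 only and 2 were opposite. Over the 70 measured genes of the list the same counts were 18, 13, 32, 4 and 2. None of the motifs searched here contains another as a whole, but matches of different motifs can overlap.

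Genes of BMP and TGF-β signalling differed by member. Both families signal through paired kinase receptors to SMAD transcription factors and control bone formation and matrix. Of 13 BMP genes measured, BAMBI and FST were higher in MG-63 and lower in Saos-2, the ligand gene BMP2 (1.34 in MG-63 against 0.30 in Saos-2) and the receptor gene ACVR1 (0.72 in MG-63 against -0.29 in Saos-2) were higher in MG-63 only, and BMPR2 (-0.28 in MG-63 against 0.59 in Saos-2) and ID2 (-0.38 in MG-63 against 0.62 in Saos-2) were higher in Saos-2 only. Of 16 TGF-β genes, TGFBR3 was opposite, SMURF2, a ubiquitin ligase for SMADs, was higher in MG-63 only (1.48 in MG-63 against -0.03 in Saos-2), SMAD3 was lower in Saos-2 only (0.22 in MG-63 against -1.39 in Saos-2), and TGFBI was higher in Saos-2 only. SMAD7, an inhibitory SMAD, was lower in MG-63 only by its brightest probe set (-1.01 in MG-63 against -0.19 in Saos-2). Its next probe set passed 1.5-fold in neither line and gave a difference of 0.34 beside -0.82, so SMAD7 is not placed with certainty. SMAD4, the shared partner of the others, passed 1.5-fold in neither (0.57 in MG-63 against -0.52 in Saos-2). SMAD1, SMAD2 and SMAD5 had changes between -0.37 and 0.16 over both lines.

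The AP-1 and ERK output genes also went different ways. AP-1 is a dimer of FOS and JUN proteins, and ERK signalling raises many of its subunits. FOSL1, JUN (-0.09 in MG-63 against 1.31 in Saos-2), FOSL2 (0.28 in MG-63 against 0.94 in Saos-2) and EGR1 (0.46 in MG-63 against 1.11 in Saos-2) were higher in Saos-2 only, as were the ERK phosphatase gene DUSP5 (-0.02 in MG-63 against 1.34 in Saos-2), PHLDA1 (-0.07 in MG-63 against 1.56 in Saos-2) and CCND1, which encodes cyclin D1 (-0.24 in MG-63 against 1.00 in Saos-2). The ERK inhibitors SPRY1 (1.10 in MG-63 against -0.41 in Saos-2) and SPRY2 (1.81 in MG-63 against 0.51 in Saos-2) were higher in MG-63 only, and MYC (1.75 in MG-63 against 0.68 in Saos-2) and IER3 (0.85 in MG-63 against 2.02 in Saos-2) were higher in both lines. The AP-1 letters TGANTCA were found in 4.48% of the promoters of genes higher in Saos-2 only and in 4.18% of all.

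Receptor tyrosine kinase genes parted in the same piecemeal way. AXL, a receptor for GAS6, had 13.49 with sh-circ_0000073 and 13.91 with sh-NC in MG-63, and 11.68 with sh-circ_0000073 and 9.82 with sh-NC in Saos-2. DDR2, a collagen receptor, changed by -0.56 in MG-63 against 0.89 in Saos-2. ERBB2 changed by 0.26 in MG-63 against 1.23 in Saos-2. These 3 were higher in Saos-2 only, while MET (-0.60 in MG-63 against 0.53 in Saos-2) and MERTK (-0.80 in MG-63 against 0.48 in Saos-2) were lower in MG-63 only. PDGFRA, a platelet-derived growth factor receptor, was lower in Saos-2 only (0.09 in MG-63 against -1.11 in Saos-2), and EFNB2, an ephrin ligand, was higher in MG-63 only (1.24 in MG-63 against 0.01 in Saos-2). Of the 8 measured collagen genes COL5A2 had the largest difference (1.67 in MG-63 against -0.02 in Saos-2), and COL1A1 cannot be placed, since its 2 probe sets gave differences of -0.61 and 1.13. The list of p53 targets, with a median difference of 0.57 over 19 genes, was led by GADD45B (0.04 in MG-63 against -0.82 in Saos-2), SESN1 (0.89 in MG-63 against 0.13 in Saos-2) and PPM1D (0.12 in MG-63 against -0.63 in Saos-2).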

How the data were processed

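Total RNA of 4 cultures (2 osteosarcoma lines, each with sh-circ_0000073 and sh-NC) was measured on 1 array each. The authors deposited log2 signals per probe set made with Affymetrix Expression Console, per the labels, and the version is not given in the sources used here, nor are the summarisation and the background correction. The values are given to 2 decimals, and no counts lie behind them, so the number of arrays limits the precision. Samples were grouped by their labels. Symbols came from the platform annotation and were brought up to date with RefSeq's genes on GRCh38.p14 (623 names changed). 36176 probe sets had 1 symbol, 1119 several and 98455 none, and only the first were used.

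Changes and their difference between the lines were computed in Python 3.11.15 with numpy 2.4.6 and pandas 2.3.3, and the steps were tested on simulated data. For genes, the brightest member probe set by its mean over the arrays was used. No test was run, since the interaction of line and hairpin uses the last degree of freedom, and each line is represented by a single culture per hairpin. Named are the 10 largest differences in each direction, the 10 opposite genes in each direction with the largest smaller change, the 8 largest changes per line and direction among genes under 1.2-fold in the other line, and up to 5 members of the lists described, with all measured cholesterol synthesis genes, and with pseudogenes and noncoding RNAs left out of the ranks. Other list members are named after their values were seen. The members, lists and motifs were chosen with earlier results of these data known. The cytosolic tRNA synthetases and the motif TGATGNAA were added after the values were seen. Promoters of 6920 of the 10508 genes were in the RefSeq table. The alternatives were other signal minimums, centring, quantile normalization, 2-fold, 1.2-fold for the other line, and the brightest or the mean probe set of a gene.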

Additional observations from a re-analysis of the deposited data

Results flagged for a closer look

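The genes below were singled out because their 2 cultures with sh-circ_0000073 lay on opposite sides of their sh-NC cultures, past 1.5-fold in each line. Some of them, EGFR, KIF18B and IFI35 among others, no longer pass it in each line when the lines are centred on their own medians. The difference between the lines was not tested, since each condition has 1 array.

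Higher in MG-63 and lower in Saos-2 were BAMBI with a log2 difference of 4.74, IRS2 with 2.87, TMEM119 with 2.86, BDNF with 2.84, CDH8 with 2.70, TMEM47 with 2.64, TNFAIP3 with 2.63, CHEK2 with 2.54, IFIT2 with 2.48, PDE5A with 2.37 and TENT5A with 2.21. List members of the same direction were TGFBR3 and ITGA4, an integrin subunit gene, with 1.97 each, FST with 1.71, EGFR with 1.64, SKA1 with 1.40, FJX1, a target of YAP signalling, with 1.32 and KIF18B with 1.30.

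Lower in MG-63 and higher in Saos-2 were MFAP2 with -3.16, CYRIA and SRPX with -2.90 each, BLNK with -2.82, TMC7 with -2.76, PDE1C with -2.75, LTBP3 with -2.50, PGPEP1 with -2.46, SOCS2 with -2.34, ZNF248 with -2.24, ATXN7L1 with -2.22 and TP53BP1 with -2.05. Among list members these were joined by IFI35 with -1.96, DDIT3 with -1.95, MAML2, a Notch coactivator gene, with -1.89, TAP2, a peptide transporter gene of antigen presentation, with -1.65, PSAT1 with -1.57, TNFAIP2 with -1.54 and AMOTL1, a regulator of YAP, with -1.36.

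The replication histone genes went both ways, H3C8 with 1.73 and H2AC4 with 1.54 being higher in MG-63, and H4C4 with -1.90 and H2AC13 with -1.20 being higher in Saos-2. These genes are near-identical copies whose probe sets may share signal, so their values are uncertain.

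Among the probe sets without a gene symbol here, which no comparison of the report uses, 10156 reached a signal of 6 on an array of each line and 229 (2.25%) had opposite changes, 147 of them higher in MG-63 and 82 higher in Saos-2.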

How the results depend on the processing

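No paired analysis was possible because each condition has 1 array, for which reason no replicate could be left out either. Counts here are of probe sets. With no signal minimum the counts were 2456 higher and 1936 lower in MG-63 only, 2383 higher and 1296 lower in Saos-2 only, and 147 opposite with MG-63 higher and 214 with Saos-2 higher, since more probe sets enter. At 2-fold they were 352 and 266, 370 and 171, and 11 and 9. With the other line under 1.2-fold they were 531 and 376 in MG-63 only and 596 and 243 in Saos-2 only. Centring each line moved the Saos-2 counts to 782 higher and 732 lower. A signal of at least 7, or of at least 6 on all 4 arrays, each left 39 opposite probe sets with MG-63 higher. The remaining 38 counts under these alternatives were within 1.5 times the reported ones. Of the 161 opposite genes, 136 kept their class after quantile normalization and 115 after centring.

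The median differences of the cholesterol synthesis, ATF4, unfolded protein, mitosis and interferon-stimulated lists kept their sign under every alternative run, from -0.81 to -0.66 for cholesterol synthesis and from -0.94 to -0.76 for the ATF4 list. The AP-1 list turned to 0.09 with a signal of at least 7 on an array of each line, and with at least 6 on all 4 arrays, where fewer genes are left. COL1A1 turned to 0.26 when its probe sets were averaged. Every other gene named by the ranks or the list rules kept the sign of its difference under the alternatives that gave it a value. Most of these alternatives could change few signs. The brightest probe set is the reported value itself, centring shifts all genes alike, and the mean alters only the 308 genes with several probe sets. Of the 90 such genes in a class of 1 line only or opposite, the next probe set gave a difference of the same sign in 53. Dim genes are limited by their distance from background, and no array repeats another.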

Other observations

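Pseudogenes are copies of other genes that mostly make no protein. Those not annotated as transcribed behaved unlike protein-coding genes in MG-63. Of 1786 measured, 309 (17.3%) were higher in MG-63 only and 46 (2.58%) lower, against 619 (7.79%) higher and 650 (8.18%) lower of 7944 protein-coding genes. In Saos-2 only, 143 (8.01%) were higher and 50 (2.80%) lower, against 933 (11.7%) higher and 369 (4.65%) lower of the protein-coding genes. The surplus in MG-63 was present in each of 4 bands of signal, with 16.8% of pseudogenes against 8.70% of protein-coding genes at a mean signal under 7, and 15% against 6.72% at 11 or more. Their median change was 0.24 in MG-63 and 0.14 in Saos-2, while that of protein-coding genes was 0.01 in MG-63 and 0.13 in Saos-2. Many pseudogene probe sets may also take up signal of their parent genes, the part of which was not tested. Transcribed pseudogenes are annotated apart, were not counted above and did not show this surplus. Of their 245 probe sets 21 were higher and 21 lower in MG-63 only, with a median change of -0.01 in each line.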
